A study of Mus musculus with 7 samples.

Results

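The 7 brain tumours of the series were divided into a brain-rich and a brain-poor side by their level of Mbp, which encodes myelin basic protein of the myelin sheath. The members of each side were chosen by the measured CPM of that 1 gene, its count over the library's total count on genes scaled to CPM, and 1500 CPM or more put a tumour on the brain-rich side. That side held 4 of the 7 tumours (GSC1 replicates 3 and 4 and GSC2 replicates 2 and 3), and the brain-poor side held 3 (GSC1 replicates 1 and 2 and GSC2 replicate 1). The rule gave 615, 222 and 989 CPM in the brain-poor tumours and 5332, 2427, 3102 and 3651 CPM in the brain-rich ones, so the values nearest to the threshold were 989 CPM in GSC2 replicate 1 and 2427 CPM in GSC1 replicate 4. Mbp is not reported further. The sides are a split made from the same libraries and not a treatment, so each test below describes how closely a gene follows that split, and the genes of the myelin list are given as values without a test.

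Each tumour grew in the brain of a nude mouse, a host without thymus-derived T cells that still has natural killer and myeloid cells, after orthotopic implantation of mouse glioblastoma stem-like cells, which descend from neural stem cells of a germinal layer beside the ventricles, the subventricular zone. GSC1 cells carried lgT and Ras, and GSC2 cells carried a short hairpin against p53 (shp53), loss of Nf1 (Nf1-/-) and CDK4. Each set of changes existed in 1 line only, both lines had 10 to 15 passages in neural stem cell culture, the labels name no agent given to the hosts, and the hosts' age and the time to collection are not stated there. Tumour and host are both mouse, so the RNA of the graft and of the surrounding tissue is counted together. Each side held tumours of both lines, and the line was kept as a covariate in every fit unless stated. Values per tumour are given in a fixed order, brain-poor first (GSC1 replicates 1 and 2, then GSC2 replicate 1) and then brain-rich (GSC1 replicates 3 and 4, then GSC2 replicates 2 and 3).

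Glioma grafts grow into the host brain, so a piece of tumour contains neurons, astrocytes and myelinating oligodendrocytes of the host beside the dividing graft cells. Most neurons and myelinating cells of the adult brain have left the cell cycle, and their transcripts for synapses, transporters and myelin are abundant and specific. Transcripts for DNA replication and mitosis come from cells in the cycle, which in an adult brain with a tumour are mainly those of the graft and the host cells that divide around it. In bulk RNA, fewer cells of a type and less RNA per cell cannot be told apart, and a higher share of one tissue lowers the share of all others.

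The libraries held 18643155 to 32643408 counts on genes, so where a tumour is at 0 a level of 3 reads would be 0.0869 to 0.153 CPM. All pairs of libraries were farther apart than counting noise, and the 3 brain-poor tumours formed the closest pairs, with a chi-square of 66.5, 72.1 and 92.5 per degree of freedom. The libraries also differed in how transcripts of different length were represented. Genes with a transcript of at least 8000 bases were set against genes with none above 2000 bases, and the difference of their median log2 deviations, the length slope, was 0.02, 0.54 and 0.37 in the brain-poor tumours and -0.40, -0.36, 0.64 and -0.70 in the brain-rich ones. The 3 libraries with negative slopes were thus all brain-rich, and GSC2 replicate 2 was the brain-rich library whose slope lay with the brain-poor ones. For that reason the median difference of GSC2 replicate 2 from GSC2 replicate 1 is given beside each list, as that of the GSC2 pair. Both slopes of the pair were positive, but that of GSC2 replicate 2 was higher, and the pair has no replicate of its own. Genes over 8000 bases had a median log2 deviation of 0.50 in GSC2 replicate 2 and 0.27 in GSC2 replicate 1. Genes of at most 1000 bases had -0.204 and -0.065, so a length difference toward long transcripts remains in the pair.

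Of 16067 genes tested, 2981 were higher in the brain-rich tumours (18.6%) and 2784 were lower (17.3%) at an adjusted p under 0.05 in edgeR's quasi-likelihood test, 35.9% in both directions together. The median log2 fold change over all genes was 0.01 on the scale of TMM normalization, and -0.10 with library size alone. Of the genes that passed, 70.1% differed at least 2-fold, and their median absolute log2 fold change was 1.32. Without regard to any test, 3245 genes had all 4 brain-rich tumours above all 3 brain-poor ones (20.2%) and 3233 had them below (20.1%), 40.3% in either direction. The p-values lay close to the threshold: the smallest adjusted p was 0.00924, and 66.5% of the genes that passed had an adjusted p above 0.02.

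These counts rested on single GSC1 tumours. Without GSC1 replicate 1 edgeR passed 0 genes (3144 higher and 3158 lower at an unadjusted p under 0.05, with 1152 and 811 passing in limma-voom and 2865 and 2551 in DESeq2). Without GSC1 replicate 4 it passed 1 higher gene and 0 lower (3313 and 2713 at an unadjusted p under 0.05, 1477 and 781 in limma-voom, 2698 and 2429 in DESeq2). Without GSC1 replicate 2 it passed 813 higher and 500 lower genes, and without GSC1 replicate 3 it passed 685 and 165. Without GSC2 replicates 1, 2 and 3 in turn edgeR passed 3226, 3153 and 2579 higher and 3027, 3273 and 2066 lower genes. With GSC2 replicate 1 left out, the side difference comes from the GSC1 tumours alone. Each of the genes that passed with all tumours kept its direction in all 7 fits that left out 1 tumour and still tested it. Without the 3 libraries of negative slope, which left GSC2 replicate 2 as the brain-rich tumour, edgeR passed 0 genes (1039 higher and 424 lower at an unadjusted p under 0.05, 0 in limma-voom and 88 and 10 in DESeq2), and 5685 of 5730 genes kept their direction. The counts given per list below hold for the fit on all 7 tumours and carry this limit. With the line as covariate, the fit without the 3 libraries of negative slope draws its side difference from GSC2 replicates 2 and 1 alone. Its values are therefore not separate from those of the GSC2 pair.

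**Figure D1:**
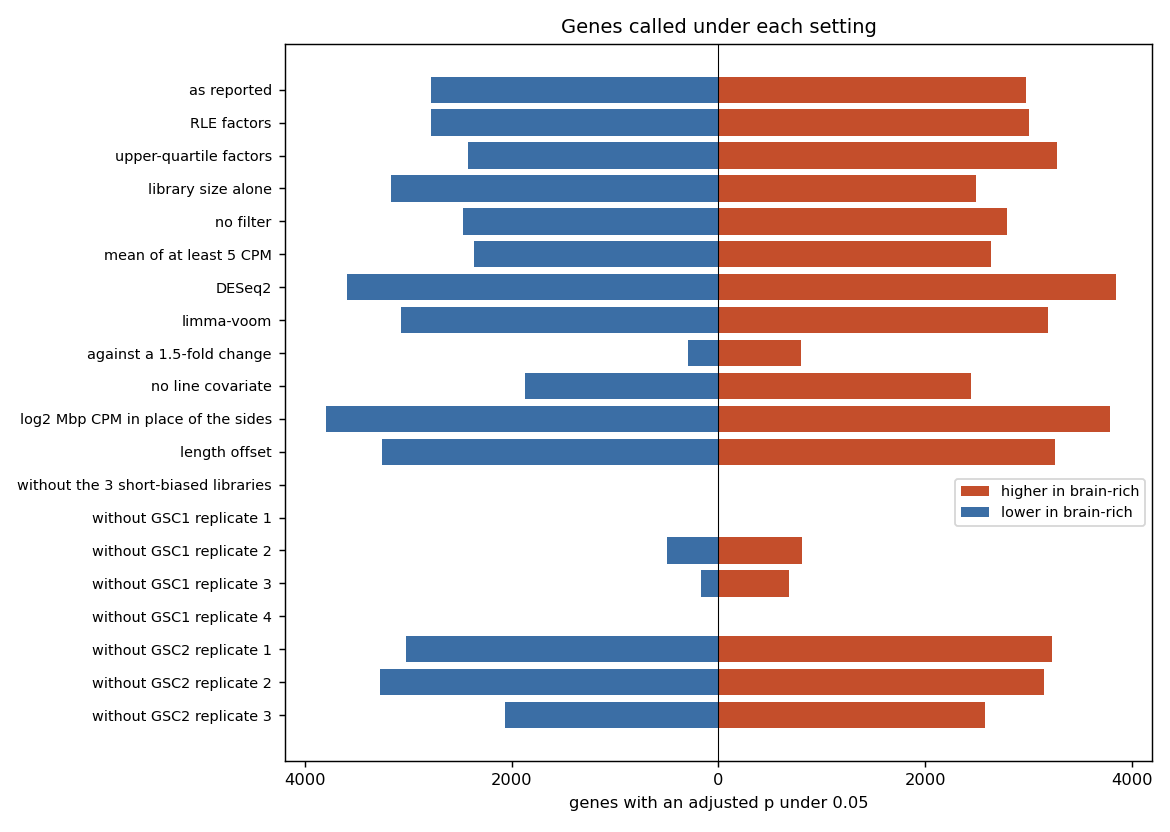
Number of genes with an adjusted p under 0.05 that were higher (red, to the right) or lower (blue, to the left) in brain-rich tumours, for the fit as reported and for other settings, which use edgeR unless another tool is named. The bars shorten to 0 without GSC1 replicate 1 and without the 3 libraries of negative length slope, and reach 3846 and 3591 in DESeq2 on all 7 tumours.

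Transcripts common to most neurons moved with the myelin gene that made the sides. Of 20 genes common to most neurons 15 were higher and 0 lower in the brain-rich tumours, with a median log2 fold change of 1.78 against 0.01 over all genes. Vsnl1, which encodes a neuronal calcium sensor, was at 40.9, 12.1 and 27.3 CPM in the brain-poor and 522, 307, 157 and 159 CPM in the brain-rich tumours. The sides did not overlap, and the difference passed (log2 fold change 3.37, SE 0.54, edgeR adjusted p = 0.018). Syp, which encodes the synaptic vesicle protein synaptophysin, was at 211, 67.8 and 136 CPM in the brain-poor and 1055, 836, 449 and 513 CPM in the brain-rich tumours (log2 fold change 2.37, SE 0.43). Stmn2, a regulator of microtubules in growing axons, was at 101, 32.5 and 49.5 CPM in the brain-poor and 306, 307, 138 and 129.9 CPM in the brain-rich tumours (log2 fold change 1.88, SE 0.40), and Nefl, the light neurofilament chain of large axons, at 126, 148 and 66.0 CPM in the brain-poor and 589, 401, 210.1 and 115 CPM in the brain-rich tumours (log2 fold change 1.63, SE 0.29). For Vsnl1, Syp and Stmn2 GSC1 replicate 2 was the lowest tumour. For Nefl GSC2 replicate 3 lay below both GSC1 tumours of the brain-poor side, so its sides overlapped. The list's median was 2.35 within GSC1 and 1.18 within GSC2, and GSC2 replicate 2 exceeded GSC2 replicate 1 for 20 of the 20 genes, by a median log2 difference of 1.48.

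Of 12 inhibitory neuron genes 9 were higher and 0 lower (median 2.18, and 4 higher with no filter on low counts). Of 11 excitatory neuron genes 2 were higher and 1 was lower (median 0.83), neither above the share over all genes tested, 18.6% higher and 17.3% lower. The inhibitory medians were 2.81 within GSC1, 0.66 within GSC2 and 1.28 in the GSC2 pair, and the excitatory ones 0.39, 1.165 and 1.01. The inhibitory list thus had the higher median within GSC1 and the lower one within GSC2, and the difference between the lists was not tested. Calb2, the calcium buffer calretinin, had the smallest adjusted p of the lists: it was at 1.59, 1.62 and 3.92 CPM in the brain-poor and 98.9, 104, 90.8 and 103 CPM in the brain-rich tumours. The brain-rich tumours of both lines had nearly the same level, and none of the brain-poor tumours exceeded 3.92 CPM (log2 fold change 5.41, SE 0.35, edgeR adjusted p = 0.00924). Slc32a1, which loads GABA and glycine into vesicles, was at 23.6, 12.2 and 37.7 CPM in the brain-poor and 144, 146, 44.7 and 78.3 CPM in the brain-rich tumours (log2 fold change 2.03, SE 0.54). The sides did not overlap for Calb2 or for Slc32a1. Among excitatory genes, Slc17a6, the vesicular glutamate transporter of thalamus and brainstem, was higher, at 3.51, 2.57 and 12.1 CPM in the brain-poor and 199, 97.9, 124 and 18.3 CPM in the brain-rich tumours (log2 fold change 4.26, SE 0.96). Grin1, the obligatory subunit of NMDA receptors, was also higher, at 74.7, 29.0 and 55.7 against 177, 177, 136 and 100.05 CPM in the same order (log2 fold change 1.49, SE 0.35). Gria2, an AMPA receptor subunit, had values of 50.2, 26.5 and 60.5 against 76.8, 61.7, 76.5 and 133 CPM and did not pass (log2 fold change 0.83, SE 0.29).

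Of 18 genes for neuronal ion channels and synaptic scaffolds 8 were higher and 0 lower (median 0.98, and 1.14 in the GSC2 pair). Hcn2, which encodes a pacemaker channel, was at 61.9, 29.6 and 71.6 CPM in the brain-poor and 378, 259, 216 and 152 CPM in the brain-rich tumours (log2 fold change 2.19, SE 0.42). Scn2a, a sodium channel of axons, was at 42.3, 22.0 and 34.5 against 63.4, 68.0, 76.5 and 67.3 CPM (log2 fold change 1.04, SE 0.25). Nlgn3, a synaptic adhesion protein that glia also make, was at 36.8, 25.1 and 34.4 against 71.5, 71.6, 75.0 and 64.8 CPM (log2 fold change 1.13, SE 0.20). The sides did not overlap for these 3 genes. The genes of this list have long transcripts, with a median of 8298 bases against 3311 over all genes tested. With a per-library correction for transcript length 11 of the 18 were higher and 0 lower, and the median was 1.30.

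Astrocyte genes gave one of the highest counts among the host lists. Of 16 genes 14 were higher and 0 lower, with a median log2 fold change of 2.26. Slc1a2, the main glutamate transporter of astrocytes, was at 360.3, 222 and 463 CPM in the brain-poor and 1948, 1336, 1596 and 1271 CPM in the brain-rich tumours. The lowest brain-rich value lay above the highest brain-poor one (log2 fold change 2.14, SE 0.32, edgeR adjusted p = 0.018). Aqp4, the water channel of astrocyte endfeet, was at 131, 124 and 191 CPM in the brain-poor and 1246, 1028, 548 and 494 CPM in the brain-rich tumours (log2 fold change 2.43, SE 0.38). Slc4a4, a bicarbonate cotransporter, was at 40.7, 42.2 and 87.0 against 567, 517, 343 and 198 CPM (log2 fold change 2.82, SE 0.48), and Aldh1l1, a folate enzyme used as an astrocyte marker, at 59.7, 50.6 and 63.8 against 203, 170.4, 115 and 135 CPM (log2 fold change 1.43, SE 0.23). For all 4 of these genes every brain-rich tumour lay above every brain-poor one. The list's summed level was 2648 to 3942 CPM in the brain-poor and 9746 to 19518 CPM in the brain-rich tumours, so the sums did not overlap. All 16 genes were above GSC2 replicate 1 in GSC2 replicate 2, with a median difference of 1.57. Glioma cells can make several of these transcripts, and their part in the difference was not tested.

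The 23 tested myelin genes other than Mbp all had positive log2 differences, with a median of 2.71 (1.47 in the GSC2 pair), which restates the split. Cnp, an enzyme of uncompacted myelin, was at 151, 106 and 197 CPM in the brain-poor and 1120.0, 553, 529 and 627 CPM in the brain-rich tumours. Mal, a membrane protein of compact myelin, was at 45.1, 21.4 and 81.8 CPM in the brain-poor and 764, 244, 304 and 408 CPM in the brain-rich tumours. Of 12 oligodendrocyte progenitor genes 7 were higher and 1 lower (median 1.10, and 0.89 in the GSC2 pair). Olig1, a lineage transcription factor, was at 74.4, 50.6 and 92.1 CPM in the brain-poor and 225, 136, 188 and 265 CPM in the brain-rich tumours (log2 fold change 1.44, SE 0.27), and Neu4, a sialidase, at 1.85, 0.698 and 1.42 against 12.7, 5.28, 7.40 and 7.42 CPM (log2 fold change 2.64, SE 0.49). Bcan, the extracellular proteoglycan brevican, was at 37.2, 27.5 and 76.2 against 208, 132, 136 and 186 CPM (log2 fold change 1.84, SE 0.35). The sides did not overlap for these 3 genes. Vcan, the proteoglycan versican, was the gene of that list that was lower, at 115, 279 and 123 against 29.0, 39.6, 111 and 46.8 CPM (log2 fold change -1.84, SE 0.56).

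**Figure D2:**
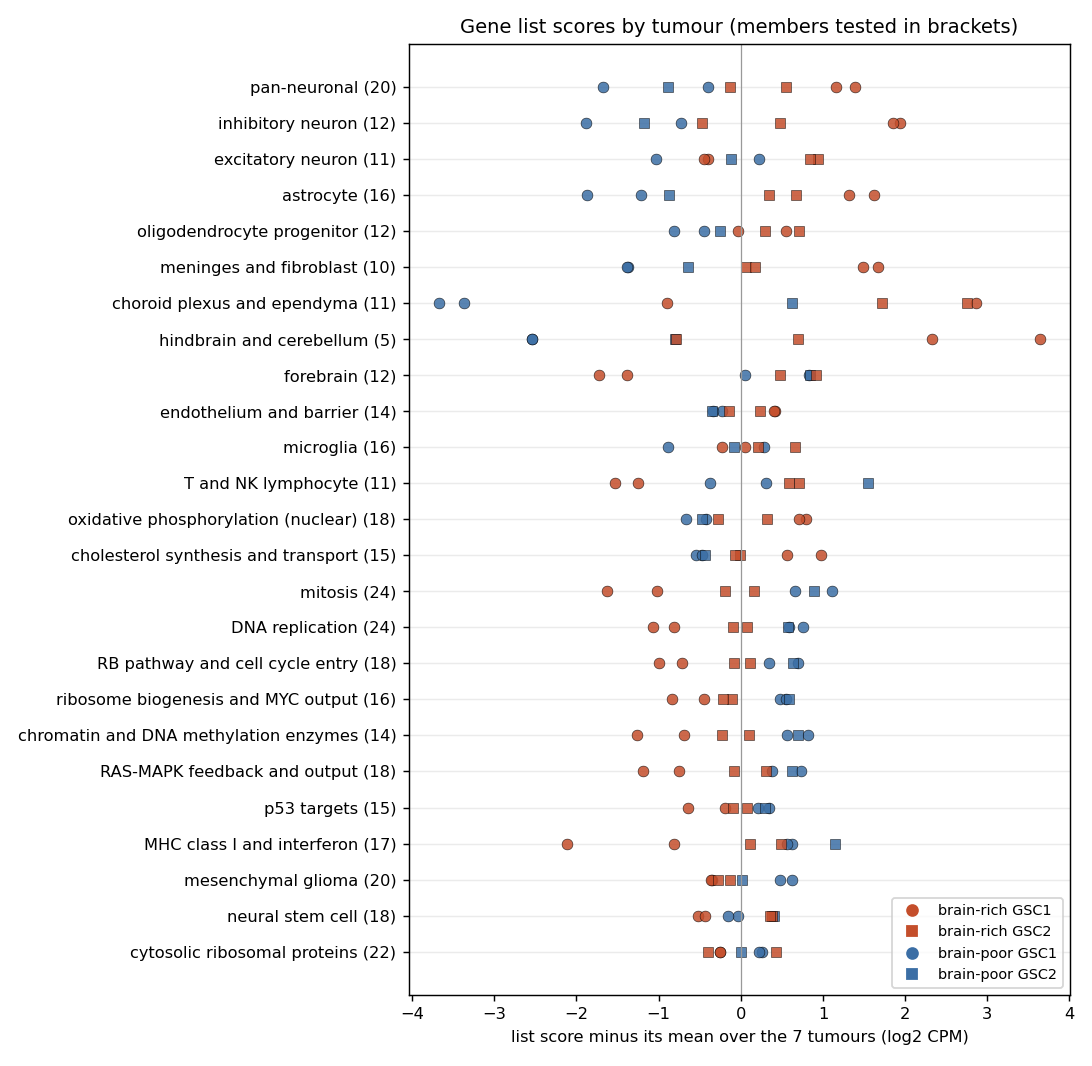
Mean log2 CPM of the tested genes of each list in a tumour, minus the list's mean over the 7 tumours (horizontal axis, log2 units), with brain-rich tumours in red, brain-poor ones in blue, GSC1 as circles and GSC2 as squares. Before centring, the pan-neuronal list lies at 6.58, 5.30 and 6.10 against 8.37, 8.14, 7.54 and 6.84 and the mitosis list at 6.29, 6.75 and 6.53 against 4.01, 4.62, 5.80 and 5.44, brain-poor against brain-rich, and neither overlaps between the sides.

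Other host compartments differed less or in part, and over all genes tested 18.6% were higher and 17.3% lower. Of 16 microglia genes 2 were higher and 0 lower (median 0.20, and 0.30 in the GSC2 pair). P2ry12, a purine receptor of resting microglia, was at 32.9, 18.1 and 26.1 CPM in the brain-poor and 53.2, 49.2, 50.2 and 57.8 CPM in the brain-rich tumours (log2 fold change 1.02, SE 0.24), and Olfml3 at 66.6, 32.7 and 45.7 against 122, 99.99, 60.5 and 131 CPM (log2 fold change 1.12, SE 0.35). The microglia sum was 1352 to 2812 CPM in the brain-poor and 1913 to 3375 CPM in the brain-rich tumours, and these ranges overlapped. Of 16 genes of recruited myeloid cells 1 was higher and 4 were lower (median -0.51, and -0.29 in the GSC2 pair). Cd44, Fn1 and Vim of this list also stand on the mesenchymal, matrix, adhesion or stem cell lists below. The count and median are thus not of recruited myeloid cells alone. Lyz2, lysozyme of macrophages and neutrophils, was at 389, 247 and 317 CPM in the brain-poor and 198, 186, 135 and 111 CPM in the brain-rich tumours (log2 fold change -0.99, SE 0.23). Itga4, an integrin of blood-derived myeloid cells and lymphocytes, was at 15.4, 30.4 and 12.9 against 6.32, 4.29, 8.84 and 4.66 CPM (log2 fold change -1.66, SE 0.43), and Chil3 at 2.17, 1.18 and 5.75 against 0.636, 0.667, 0.842 and 1.45 CPM (log2 fold change -1.78, SE 0.46). The sides overlapped for Chil3 and not for Lyz2 or Itga4. Cd163, a scavenger receptor of perivascular macrophages, was the member that was higher, at 0.638, 0.662 and 0.204 against 2.31, 3.19, 1.19 and 0.852 CPM (log2 fold change 2.15, SE 0.46). Of 11 T and NK lymphocyte genes tested, 0 were higher and 2 lower, and 11 of 11 had negative values (median -1.18). Gzmb, a protease of killer cells, was at 1.42, 1.32 and 3.66 CPM in the brain-poor and 0, 0, 1.23 and 1.30 CPM in the brain-rich tumours (log2 fold change -3.65, SE 1.09), and Ptprc, the common leukocyte antigen CD45, at 33.3, 37.2 and 57.4 against 10.9, 19.9, 33.4 and 29.2 CPM (log2 fold change -1.07, SE 0.24). Both Gzmb and Ptprc were highest in GSC2 replicate 1.

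Of 14 genes of endothelium and the blood-brain barrier 6 were higher and 0 lower (median 0.42, and 0.44 in the GSC2 pair). Slco1c1, a thyroid hormone transporter of brain vessels, was at 41.9, 13.6 and 45.3 CPM in the brain-poor and 64.2, 114, 101 and 148 CPM in the brain-rich tumours (log2 fold change 1.59, SE 0.42). Cldn5, the tight junction protein of that barrier, was at 58.5, 43.2 and 36.2 against 89.2, 84.9, 57.2 and 69.2 CPM (log2 fold change 0.79, SE 0.18), and Ly6c1 at 20.3, 16.5 and 22.3 against 53.3, 54.99, 37.4 and 30.1 CPM (log2 fold change 1.16, SE 0.25). GSC2 replicate 2 lay just below the highest brain-poor tumour for Cldn5, and the sides did not overlap for the other two. Of 10 pericyte and smooth muscle genes 0 passed in either direction (median 0.66, and 0.44 in the GSC2 pair). All brain-rich tumours lay above all brain-poor ones for 2 of 10, against 20.2% of all genes tested. In that list limma-voom passed 2 higher and 0 lower, DESeq2 5 and 0, and 5 had an unadjusted p under 0.05 in edgeR. Of 10 genes of meninges and fibroblasts 6 were higher and 0 lower (median 2.14, and 0.71 in the GSC2 pair). Slc6a13, a GABA transporter of the leptomeninges, was at 1.10, 1.36 and 1.12 CPM in the brain-poor and 15.0, 38.6, 5.09 and 4.86 CPM in the brain-rich tumours (log2 fold change 3.55, SE 0.61). Ptgds, a prostaglandin synthase of meninges and choroid plexus, was at 57.7, 54.6 and 80.9 against 603, 2894, 227 and 370.3 CPM (log2 fold change 3.62, SE 0.87). GSC1 replicate 4 was the highest tumour for both of these genes. Of 11 choroid plexus and ependyma genes 6 were higher and 0 lower (median 3.78, and 1.17 in the GSC2 pair). Foxj1, the master factor of motile cilia, was at 7.71, 4.63 and 15.6 CPM in the brain-poor and 24.3, 43.4, 30.8 and 62.8 CPM in the brain-rich tumours (log2 fold change 2.09, SE 0.39). The summed level of the choroid plexus and ependyma list was 11.8 to 2153 CPM in the brain-poor and 106 to 8991 CPM in the brain-rich tumours, ranges that overlapped.

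Some markers of brain regions differed between the sides. Of 12 hindbrain and cerebellum genes 5 had enough reads in enough tumours to be tested, and 3 of them were higher and 0 lower. When the filter was instead a mean of at least 5 CPM, which keeps genes that few tumours carry, 9 were tested and 7 were higher. Members near 0 in the brain-poor tumours, such as Cbln3 and Hoxb5 below, can reach that mean only through the brain-rich ones. Their direction was thus fixed by the filter, and the count of 7 is not a separate result. Zic1, a transcription factor of the cerebellum and dorsal midline, was at 1.91, 2.32 and 18.0 CPM in the brain-poor and 135, 306, 104 and 127 CPM in the brain-rich tumours (log2 fold change 4.86, SE 0.98, edgeR adjusted p = 0.018). Slc6a5, the glycine transporter of brainstem and spinal neurons, was at 0.724, 0.882 and 0.509 CPM in the brain-poor and 135, 81.2, 1.89 and 0 CPM in the brain-rich tumours (log2 fold change 5.70, SE 1.66). The sides overlapped for Slc6a5, because GSC2 replicate 3 had 0 reads. Calb1, the calbindin of Purkinje cells and other neurons, was at 13.9, 4.12 and 18.0 against 79.5, 236, 44.4 and 38.1 CPM (log2 fold change 2.85, SE 0.81). The list's median was 6.30 within GSC1, 0.79 within GSC2 and 1.75 in the GSC2 pair. Among members left out of the test, Cbln3, which granule cells of the cerebellum make, was at 0, 0.0735 and 0 CPM in the brain-poor and 1.31, 245, 0.210 and 0.200 CPM in the brain-rich tumours, so a single tumour carried it. Hoxb5, a homeobox gene of the caudal hindbrain and spinal cord, was at 0, 0 and 0 CPM in the brain-poor and 209, 49.6, 0 and 0.0501 CPM in the brain-rich tumours, with levels above 40 CPM only in GSC1 replicates 3 and 4. Of 12 forebrain genes 0 were higher and 4 lower (median -1.77), and without the line covariate 0 were lower. Emx2, a factor of the developing cortex, was at 18.6, 18.5 and 46.6 against 1.55, 3.48, 27.7 and 24.0 CPM (log2 fold change -2.11, SE 0.50). Lhx2, a cortical selector gene, was at 40.9, 45.6 and 58.3 against 10.1, 9.24, 41.1 and 56.0 CPM (log2 fold change -1.46, SE 0.41), and Dlx1, a factor of ventral forebrain precursors, at 22.3, 22.0 and 34.6 against 3.58, 4.38, 14.0 and 27.6 CPM (log2 fold change -1.82, SE 0.44). The sides of these 3 genes overlapped through the GSC2 tumours. The forebrain median was -2.52 within GSC1, -0.51 within GSC2 and -0.62 in the GSC2 pair, so the wider difference was in the GSC1 tumours.

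**Figure D3:**
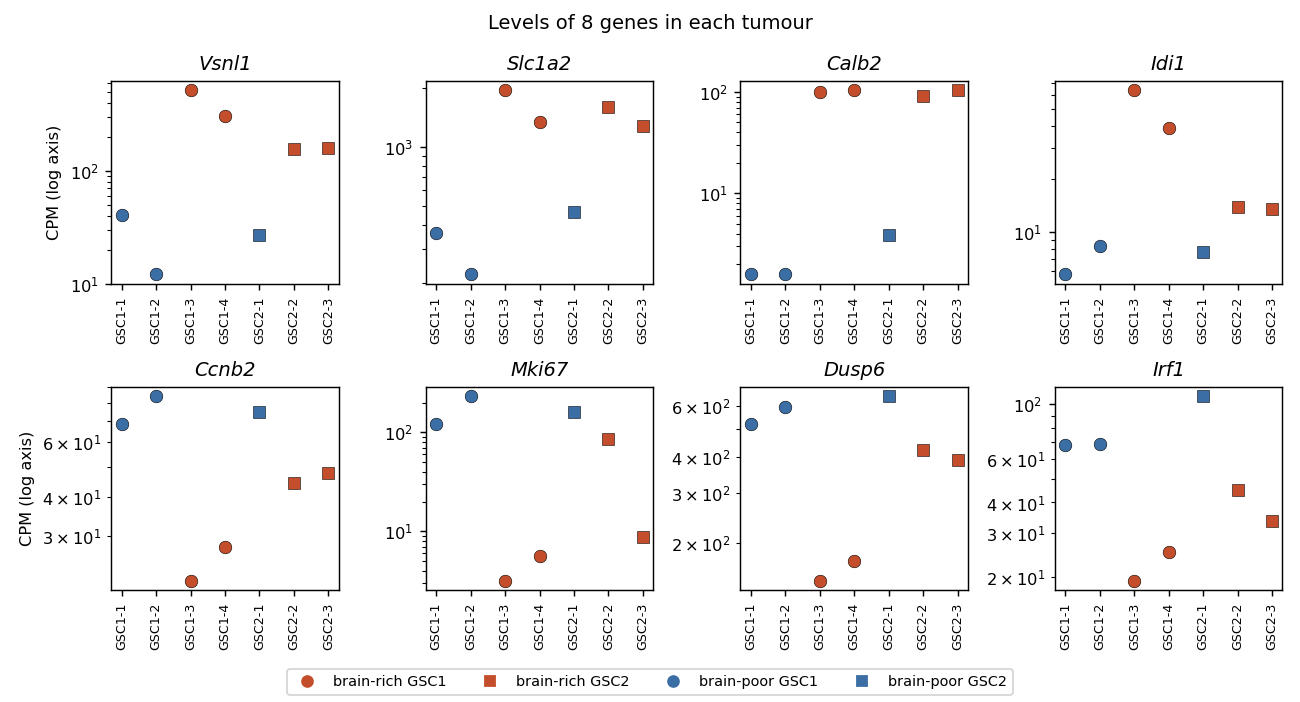
Levels of 8 genes in each of the 7 tumours, in CPM on a log axis that differs between panels, with brain-rich tumours in red and brain-poor ones in blue. Calb2 lies at 90.8 to 104 CPM in all 4 brain-rich tumours and at 1.59 to 3.92 CPM in the brain-poor ones, while Mki67 in GSC2 replicate 2 (84.8 CPM) lies nearer to the brain-poor tumours than to the other brain-rich ones.

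Genes of cell division were lower in the brain-rich tumours. Of 24 mitosis genes 23 were lower and 0 higher, with a median log2 fold change of -1.35 against 0.01 over all genes. Without the line covariate 9 of the 24 were lower. For 23 of the 24 the sides did not overlap. Foxm1, the transcription factor that activates genes of the G2 and M phases, was at 84.1, 121 and 99.3 CPM in the brain-poor and 14.7, 24.5, 55.2 and 32.5 CPM in the brain-rich tumours (log2 fold change -1.93, SE 0.37, edgeR adjusted p = 0.018). Ccnb2, a mitotic cyclin, was at 68.6, 84.2 and 74.8 CPM in the brain-poor and 21.5, 27.5, 44.3 and 47.9 CPM in the brain-rich tumours (log2 fold change -1.28, SE 0.25). Birc5, survivin of the chromosomal passenger complex, was at 52.3, 50.7 and 50.2 CPM in the brain-poor and 18.2, 18.0, 27.6 and 35.3 CPM in the brain-rich tumours (log2 fold change -1.19, SE 0.23), and Kif20a, a kinesin of cytokinesis, at 104, 139 and 128 against 20.3, 32.4, 76.4 and 51.3 CPM (log2 fold change -1.75, SE 0.34). In each of these genes the lowest tumour was GSC1 replicate 3 or GSC1 replicate 4, and the GSC2 tumours of the brain-rich side lay between those and the brain-poor side.

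The largest mitotic differences were in genes with long transcripts. Mki67, the proliferation antigen Ki-67, was at 121, 231 and 162 CPM in the brain-poor and 3.18, 5.67, 84.8 and 8.82 CPM in the brain-rich tumours (log2 fold change -4.14, SE 1.12), and its longest transcript has 10061 bases. Cenpe, a kinetochore motor, was at 81.6, 144 and 93.3 against 1.75, 7.24, 45.2 and 6.27 CPM (log2 fold change -3.67, SE 0.99), and Cenpf, a kinetochore protein, at 74.0, 149 and 116 against 2.86, 7.38, 67.9 and 10.9 CPM (log2 fold change -3.44, SE 0.94). In all 3 genes the libraries with negative length slope were far below GSC2 replicate 2. Between GSC2 replicates 2 and 1, whose slopes were both positive, the log2 differences were -0.93, -1.05 and -0.77, against -0.84 for Foxm1 and -0.75 for Ccnb2. Over the whole list, GSC2 replicate 2 was below GSC2 replicate 1 for 24 of 24 genes, with a median difference of -0.69, and the median was -1.92 within GSC1 and -0.69 within GSC2. With the correction for transcript length, 23 of 24 were again lower.

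Of 24 DNA replication genes 24 were lower (median -1.18), 14 of them without the line covariate, and the sides did not overlap for 22. Cdc6, which loads the replicative helicase at origins, was at 39.8, 51.0 and 44.9 CPM in the brain-poor and 11.5, 14.0, 27.5 and 20.5 CPM in the brain-rich tumours (log2 fold change -1.48, SE 0.27, edgeR adjusted p = 0.018). Cdt1, its partner in loading, was at 113, 133 and 91.5 CPM in the brain-poor and 17.5, 24.8, 52.3 and 44.9 CPM in the brain-rich tumours (log2 fold change -1.94, SE 0.37). Prim1, the primase subunit, was at 77.4, 93.6 and 82.3 against 26.4, 33.0, 45.0 and 46.4 CPM (log2 fold change -1.26, SE 0.21), and Lig1, the ligase of Okazaki fragments, at 148, 153 and 125 against 32.5, 41.0, 80.3 and 62.8 CPM (log2 fold change -1.57, SE 0.29). The 2 GSC1 tumours of the brain-rich side were the lowest for all 4 genes. The summed level of the list was 3194 to 3711 CPM in the brain-poor and 1038 to 2321 CPM in the brain-rich tumours. Here too 24 of 24 genes were lower in GSC2 replicate 2 than in GSC2 replicate 1, with a median difference of -0.63. Among 10 histone variant and chaperone genes 6 were lower and 0 higher (median -0.92, and -0.54 in the GSC2 pair). Nasp, a histone chaperone, was at 106, 99.8 and 106 against 25.1, 26.8, 58.6 and 46.1 CPM (log2 fold change -1.61, SE 0.25), and Chaf1a, the large subunit of chromatin assembly factor 1, at 74.4, 93.2 and 73.1 against 9.98, 14.7, 47.9 and 30.4 CPM (log2 fold change -2.08, SE 0.44).

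Promoters of genes from the lists that moved together are shown for 3 members, each 300 bases from 250 before to 50 after the RefSeq start, read from RefSeq on GRCm38.p6. They were chosen as members whose window holds the letters searched. Capitals mark CCAAT and TTTGAA in Ccnb2 (chr9:70421505-70421804, minus strand), TTTCCCGC or TTTGGCGC in Cdc6 (chr11:98907901-98908200, plus strand) and GAAA, 2 bases of any kind and GAAA again, the interferon-response letters, in the interferon gene Ifit1 (chr19:34640639-34640938, plus strand), on either strand.
Ccnb2: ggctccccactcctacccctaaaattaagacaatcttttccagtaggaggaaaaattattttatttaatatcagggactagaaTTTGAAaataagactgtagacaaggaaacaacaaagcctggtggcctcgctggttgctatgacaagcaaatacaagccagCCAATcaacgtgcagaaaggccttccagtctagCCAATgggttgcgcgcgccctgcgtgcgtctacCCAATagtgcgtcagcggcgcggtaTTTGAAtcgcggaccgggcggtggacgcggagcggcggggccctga
Cdc6: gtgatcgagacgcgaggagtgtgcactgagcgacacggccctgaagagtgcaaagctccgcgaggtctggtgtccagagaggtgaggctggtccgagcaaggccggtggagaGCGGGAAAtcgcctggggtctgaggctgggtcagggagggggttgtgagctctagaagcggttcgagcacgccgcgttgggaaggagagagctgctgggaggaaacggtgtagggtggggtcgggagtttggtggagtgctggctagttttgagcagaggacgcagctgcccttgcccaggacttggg
Ifit1: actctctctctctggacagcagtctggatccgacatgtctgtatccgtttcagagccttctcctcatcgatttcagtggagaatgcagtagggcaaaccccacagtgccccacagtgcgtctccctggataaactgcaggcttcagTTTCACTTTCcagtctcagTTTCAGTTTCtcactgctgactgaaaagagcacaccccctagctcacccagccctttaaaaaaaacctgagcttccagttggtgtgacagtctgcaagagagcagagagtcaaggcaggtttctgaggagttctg
The Ccnb2 window holds 3 CCAAT and 2 TTTGAA, the letters of the CCAAT box and of the cell cycle homology region. The Cdc6 window holds 1 of the E2F letters as GCGGGAAA on the other strand. The Ifit1 window holds 2 of the interferon-response letters. A base could count toward more than 1 motif.

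Windows were matched for 19 of the 24 mitosis genes. Shares are of genes, and a gene with several windows counted if any of them held the letters. Of the 19 genes, 14 held both CCAAT and TTTGAA in the same window (73.7%). That share was 7.97% over all 27025 genes with a window and 5.87% over the 11809 of them that were tested. CCAAT was in 17 of 19, against 41.1% of all genes with a window and 42.3% of those tested. TTTGAA was in 14 of 19, against 20.2% and 14.4%. Of 20 DNA replication genes with a window 8 held TTTCCCGC or TTTGGCGC (40.0%), against 1.80% of all such genes and 3.14% of those tested. Of 15 MHC class I and interferon genes with a window 7 held the interferon-response letters (46.7%), against 3.99% of all and 3.895% of those tested. Over the whole comparison, the E2F letters stood in 6.34% of lower and 1.52% of higher genes with a window, against 3.14% of those tested. CCAAT with TTTGAA stood in 8.10% of the lower and 5.02% of the higher genes. These are matches of letters, not measured binding sites.

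Most listed regulators of cell cycle entry and of chromatin were lower. Of 18 genes of the RB pathway 13 were lower and 0 higher, and 8 were lower without the line covariate (median -1.13, and -0.59 in the GSC2 pair). E2f1, a transcription factor that RB restrains, was at 69.9, 75.7 and 64.5 CPM in the brain-poor and 17.1, 18.9, 43.2 and 46.9 CPM in the brain-rich tumours (log2 fold change -1.46, SE 0.32). Cdk2, the kinase of S phase entry, was at 76.6, 88.2 and 102 against 25.8, 24.0, 51.5 and 52.3 CPM (log2 fold change -1.44, SE 0.21), and Rbl1, the RB relative p107, at 72.8, 116 and 91.2 against 17.4, 23.2, 56.4 and 46.6 CPM (log2 fold change -1.70, SE 0.35). E2f2 was at 14.8, 19.1 and 15.0 against 5.84, 5.48, 9.82 and 7.57 CPM (log2 fold change -1.27, SE 0.27). The sides did not overlap for these 4 genes. Cdk4, which names a change of the GSC2 line, was at 574, 540.3 and 609 CPM in the brain-poor and 252, 295, 328 and 472 CPM in the brain-rich tumours (log2 fold change -0.86, SE 0.21). Trp53, the target of the hairpin of GSC2, was at 221, 236 and 191 CPM in the brain-poor and 77.2, 84.8, 113 and 127 CPM in the brain-rich tumours (log2 fold change -1.18, SE 0.22), and was lower on the brain-rich side of both lines. Of 14 chromatin and DNA methylation enzymes 10 were lower and 0 higher, and 6 were lower without the line covariate (median -1.24, and -0.71 in the GSC2 pair). Ezh2, the methyltransferase of Polycomb complex 2, was at 92.2, 103 and 106 CPM in the brain-poor and 18.1, 22.2, 58.7 and 66.8 CPM in the brain-rich tumours (log2 fold change -1.71, SE 0.33). Uhrf1, which brings maintenance methylation to replicated DNA, was at 185, 239 and 217 against 40.6, 53.1, 125 and 112 CPM (log2 fold change -1.69, SE 0.31). Hells, a chromatin remodeller, was at 119, 170.1 and 248 against 26.9, 35.1, 123 and 83.6 CPM (log2 fold change -1.85, SE 0.29), and Hmgb2 at 251, 239 and 334 against 55.9, 79.8, 189 and 207 CPM (log2 fold change -1.43, SE 0.28). The sides overlapped for Hells, where GSC1 replicate 1 lay below GSC2 replicate 2.

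Most genes of ribosome biogenesis were lower, whereas 1 ribosomal protein gene passed. Of 16 genes of ribosome biogenesis and MYC output 12 were lower and 0 higher (median -1.14). Myc was at 87.3, 109.8 and 88.1 CPM in the brain-poor and 24.1, 34.4, 58.0 and 52.5 CPM in the brain-rich tumours (log2 fold change -1.34, SE 0.28). Nop56, a core protein of small nucleolar ribonucleoproteins, was at 205, 201 and 223 CPM in the brain-poor and 78.8, 88.7, 116 and 97.7 CPM in the brain-rich tumours (log2 fold change -1.19, SE 0.17), and Dkc1, the pseudouridine synthase dyskerin, at 66.9, 74.3 and 92.7 against 24.0, 31.995, 50.6 and 31.8 CPM (log2 fold change -1.27, SE 0.22). None of these 3 genes had overlapping sides. All 16 were lower in GSC2 replicate 2 than in GSC2 replicate 1, with a median difference of -0.74. Of 16 genes of nucleotide, serine and one-carbon synthesis 8 were lower and 0 higher, 8 did not pass, and 5 were lower without the line covariate (median -0.58, and -0.47 in the GSC2 pair). Shmt2, the mitochondrial serine hydroxymethyltransferase, was at 492, 474 and 384 against 166, 169, 225 and 268 CPM (log2 fold change -1.19, SE 0.23), and Mthfd2, the next enzyme of that pathway, at 189.9, 169 and 131 against 48.6, 63.9, 82.9 and 73.5 CPM (log2 fold change -1.32, SE 0.25). Of 22 cytosolic ribosomal protein genes 1, Rpl4, was lower and 0 higher (median -0.27), against 17.3% lower and 18.6% higher over all genes tested. In the GSC2 pair all 22 were negative, with a median of -0.40, and without GSC2 replicate 3 edgeR passed 10 as lower. Rpl4 was at 1611, 1835 and 1537 CPM in the brain-poor and 814, 919, 1125 and 1366 CPM in the brain-rich tumours (log2 fold change -0.72, SE 0.24). These transcripts are short, with a median of 1140 bases, and with the length correction 6 of 22 were lower. Processed copies of ribosomal protein genes share their reads, so their counts are uncertain.

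Most output genes of RAS and MAPK signalling were lower on the brain-rich side, and genes of the p53 and immediate early lists were lower in part. Of 18 feedback and output genes of RAS and MAPK signalling 14 were lower and 0 higher (median -1.09). Without the line covariate 5 were lower, and without GSC2 replicate 3 it was 7. Dusp6, the phosphatase of ERK, was at 519.9, 595 and 648 CPM in the brain-poor and 148, 173, 422 and 389.8 CPM in the brain-rich tumours (log2 fold change -1.37, SE 0.27, edgeR adjusted p = 0.018). Spry1, a feedback inhibitor of receptor signalling, was at 61.0, 57.6 and 208 against 28.8, 22.9, 148 and 106 CPM (log2 fold change -1.01, SE 0.21), and Egr1, a transcription factor induced by ERK, at 199.98, 304 and 284 against 45.2, 61.0, 174 and 88.0 CPM (log2 fold change -1.82, SE 0.36). The sides overlapped for Spry1, whose level was higher in the GSC2 tumours than in the GSC1 tumours of the same side. The list's median was -1.69 within GSC1, -0.56 within GSC2 and -0.36 in the GSC2 pair, and the sides did not overlap for 7 of 18 genes. Of 15 genes of the p53 list 7 were lower, 1 was higher and 7 did not pass (median -0.95, and -0.43 in the GSC2 pair). Sesn2, a stress protein, was at 73.1, 79.2 and 67.0 against 22.5, 26.1, 39.8 and 28.1 CPM (log2 fold change -1.39, SE 0.22), Gadd45a, a DNA damage gene, at 89.1, 70.4 and 178 against 23.6, 29.5, 113 and 77.0 CPM (log2 fold change -1.32, SE 0.24), and Aen, a nuclease, at 76.2, 86.2 and 73.9 against 33.7, 39.0, 54.7 and 41.3 CPM (log2 fold change -0.95, SE 0.20). GSC1 tumours of the brain-rich side were lowest for Sesn2 and Gadd45a, and the sides overlapped for Gadd45a. Sesn1, a related stress protein, was the member that was higher, at 19.5, 13.7 and 25.7 against 43.3, 50.3, 32.4 and 38.9 CPM (log2 fold change 1.07, SE 0.27). Of 12 immediate early genes tested 4 were lower, 0 were higher and 8 did not pass (median -0.98). In the GSC2 pair the median was -0.155, with 7 of 12 negative. Without the 3 libraries of negative slope, a fit whose side difference comes from the same pair, it was -0.07, with 7 of 13 negative. The 4 that were lower in the fit on all tumours were Egr1, Jun, Fosb and Ier2. Jun was at 254, 286 and 294 against 112, 113, 242 and 178 CPM (log2 fold change -0.96, SE 0.23).

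Most listed antigen presentation and interferon genes were lower too. Of 17 genes 12 were lower and 0 higher (2 were lower without the line covariate), with a median log2 fold change of -1.56, and 17 of 17 were lower in GSC2 replicate 2 than in GSC2 replicate 1, with a median difference of -0.93. Irf1, a transcription factor of the interferon response, was at 68.5, 69.0 and 108 CPM in the brain-poor and 19.3, 25.2, 45.0 and 33.7 CPM in the brain-rich tumours. Its sides did not overlap (log2 fold change -1.56, SE 0.19, edgeR adjusted p = 0.018). Nlrc5, the activator of MHC class I genes, was at 35.96, 50.6 and 63.2 CPM in the brain-poor and 2.03, 4.09, 19.99 and 10.0 CPM in the brain-rich tumours (log2 fold change -3.15, SE 0.50). Ifit1, an interferon-induced antiviral protein, was at 143, 118 and 243 CPM in the brain-poor and 12.4, 31.9, 126 and 124 CPM in the brain-rich tumours (log2 fold change -1.96, SE 0.45), and Oasl2 at 244, 243 and 386 against 20.9, 60.7, 199.6 and 193 CPM (log2 fold change -1.98, SE 0.47). The list's sum was 6972 to 7555 CPM in the brain-poor and 1409 to 5847 CPM in the brain-rich tumours. The T and NK lymphocyte list had a median difference of -0.93 in the same pair of GSC2 tumours, and its summed level was 53.6 to 103 CPM in the brain-poor and 16.3 to 63.5 CPM in the brain-rich tumours. The part of such cells in the interferon genes was not tested.

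Stem cell and mesenchymal genes divided within their lists, beside 18.6% higher and 17.3% lower over all genes tested. Of 18 neural stem cell genes 3 were higher and 5 lower (median 0.03, and -0.20 in the GSC2 pair). Nes, the intermediate filament nestin, was at 544, 662 and 344 CPM in the brain-poor and 116, 148, 268 and 119 CPM in the brain-rich tumours (log2 fold change -1.68, SE 0.40), Sox11, a factor of immature neurons and precursors, at 9.45, 12.4 and 18.5 against 1.35, 1.52, 14.5 and 9.92 CPM (log2 fold change -2.05, SE 0.53), and Hes1, a Notch target, at 87.2, 85.2 and 103 against 22.6, 29.4, 60.4 and 60.5 CPM (log2 fold change -1.36, SE 0.24). Sox4 was lower as well, at 311, 387 and 346 against 66.3, 89.99, 234 and 191 CPM (log2 fold change -1.62, SE 0.34). GSC1 replicate 3 was the lowest tumour for all 4 of these genes. The 3 that were higher were the Notch targets Hes5 and Hey1 and Fabp7, the lipid-binding protein of radial glia and astrocytes. Of 20 mesenchymal glioma genes 9 were lower and 1, Chil1, was higher (median -0.66, and -0.29 in the GSC2 pair). Runx1, a transcription factor of blood and mesenchymal cells, was at 94.1, 138 and 96.2 against 45.5, 31.1, 65.2 and 34.5 CPM (log2 fold change -1.35, SE 0.31), Cebpb at 112, 98.1 and 70.4 against 32.3, 43.9, 52.6 and 46.2 CPM (log2 fold change -1.10, SE 0.25), and Anxa1 at 185, 225 and 323 against 108, 93.5, 178 and 216 CPM (log2 fold change -0.90, SE 0.18). Tnc, the matrix protein tenascin C of gliomas, was at 693, 1196 and 768 CPM in the brain-poor and 470.0, 266, 441 and 339.6 CPM in the brain-rich tumours (log2 fold change -1.21, SE 0.30). Of these 4 genes the sides overlapped for Anxa1. Of 20 matrix genes 9 were lower and 3 higher (median -0.21, and -0.29 in the GSC2 pair). Lamb1 and Lama4, chains of vascular and tumour basement membranes, were at 543, 818 and 597 against 91.4, 171, 405 and 192 CPM (log2 fold change -1.86, SE 0.44) and 28.5, 48.9 and 95.9 against 7.87, 13.9, 54.4 and 24.2 CPM (log2 fold change -1.62, SE 0.37). The 3 that were higher were Col1a2, Nid1 and Bgn.

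Receptors and adhesion genes went in both directions, beside 18.6% higher and 17.3% lower over all genes tested. Of 18 growth factor receptors 6 were higher and 6 lower (median 0.10, and 0.22 in the GSC2 pair). Ntrk2, the neurotrophin receptor of neurons and astrocytes, was at 157, 97.1 and 213 CPM in the brain-poor and 799.8, 726, 557 and 518 CPM in the brain-rich tumours (log2 fold change 2.06, SE 0.33), and Fgfr2 at 16.6, 9.26 and 22.7 against 59.0, 48.2, 54.9 and 44.5 CPM (log2 fold change 1.67, SE 0.30). Fgfr1 was lower, at 372, 446 and 374 against 168, 188, 254 and 223 CPM (log2 fold change -0.98, SE 0.20), and so was the insulin receptor gene Insr, at 92.6, 162 and 219.8 against 34.5, 41.5, 138 and 77.8 CPM (log2 fold change -1.47, SE 0.31). The sides overlapped for Insr and not for the other 3 receptors named. Of 19 integrin, cadherin and related genes 2 were higher and 3 lower (median -0.51), neither above the share over all genes. The sign of that median turned in the GSC2 pair, to 0.23 with 10 of 19 positive. The fit without the 3 libraries of negative slope, whose side difference comes from the same pair, gave 0.27 with 13 of 19 positive. Itgb1, the shared beta chain of matrix integrins, was at 1199.6, 1633 and 922 against 660.4, 587, 677 and 627 CPM (log2 fold change -0.92, SE 0.24), and Itgb8, an integrin of astrocytes, was higher, at 54.0, 75.2 and 73.7 against 207, 154, 142 and 132 CPM (log2 fold change 1.24, SE 0.23). Of 17 splicing and RNA-binding genes 6 were lower and 1 higher (median -0.47, and -0.64 in the GSC2 pair). Ptbp1, the splicing repressor of non-neuronal and precursor cells, was at 434, 523 and 471 CPM in the brain-poor and 127, 191, 296 and 277 CPM in the brain-rich tumours (log2 fold change -1.25, SE 0.26). Its neuronal paralogue Ptbp2 was the member that was higher, at 38.9, 41.2 and 46.0 against 92.1, 74.8, 57.1 and 72.7 CPM (log2 fold change 0.83, SE 0.20). Igf2bp2, an oncofetal RNA-binding protein, was lower, at 87.1, 139 and 77.0 against 6.72, 15.5, 45.2 and 18.2 CPM (log2 fold change -2.60, SE 0.60).

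Genes of energy and lipid metabolism were higher in part, beside 18.6% higher and 17.3% lower over all genes tested. Of 18 nuclear genes of oxidative phosphorylation 15 were higher and 0 lower (median 0.91). Ndufa4, a cytochrome c oxidase subunit, was at 69.8, 51.8 and 86.0 CPM in the brain-poor and 326, 289.5, 118 and 203 CPM in the brain-rich tumours (log2 fold change 1.73, SE 0.36). Ndufa1, a subunit of complex I, was at 28.9, 20.5 and 23.0 against 95.2, 109, 38.6 and 74.2 CPM (log2 fold change 1.74, SE 0.31), and Cox6a1 at 137, 102 and 113 against 422, 343, 185 and 296 CPM (log2 fold change 1.44, SE 0.26). In all 3 genes GSC2 replicate 2 was the lowest brain-rich tumour, and it still lay above the brain-poor tumours. The transcripts of this list are short (median 1857 bases). In the GSC2 pair, where GSC2 replicate 2 had the higher length slope, the list's median difference was 0.13. The fit without the 3 libraries of negative slope draws its side difference from the same pair and gave 0.16. The part of the slopes in these values was not tested. Without GSC2 replicate 3 edgeR passed 7 of the 18. Of 15 genes of cholesterol synthesis and transport 10 were higher and 1 lower (median 1.15, and 0.32 in the GSC2 pair). Idi1, an early enzyme of isoprenoid synthesis, was at 5.74, 8.31 and 7.68 CPM in the brain-poor and 63.9, 39.0, 13.9 and 13.5 CPM in the brain-rich tumours (log2 fold change 2.02, SE 0.47). It was highest in the GSC1 tumours of the brain-rich side. Abca1, the cholesterol exporter, was the gene that was lower, at 322, 478 and 354 against 44.4, 102, 312 and 203 CPM (log2 fold change -1.73, SE 0.52). Of 16 glycolysis genes 5 were higher and 1 lower (median 0.34, and 0.11 in the GSC2 pair). Ldhb, the lactate dehydrogenase chain that predominates in neurons and heart, was at 105, 61.5 and 161 CPM in the brain-poor and 825, 787, 324 and 354 CPM in the brain-rich tumours (log2 fold change 2.33, SE 0.49). Hk2, the hexokinase of growing tumours, was the gene that was lower, at 61.4, 92.7 and 59.3 against 19.7, 27.7, 38.5 and 26.3 CPM (log2 fold change -1.38, SE 0.29). Neither gene had overlapping sides. Of 14 hypoxia genes 4 were lower and 1, Ndrg1, was higher (median -0.54, and -0.25 in the GSC2 pair). Vegfa, the vascular growth factor, was at 90.9, 103 and 71.3 against 34.1, 40.9, 49.3 and 39.4 CPM (log2 fold change -1.10, SE 0.22). Ndrg1, which myelinating cells also make, was at 102, 74.4 and 90.7 against 388, 164, 179 and 264 CPM (log2 fold change 1.497, SE 0.34).

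The genes of largest fold among all that passed, with sides that did not overlap and a mean of at least 5 CPM, differed in how evenly the brain-rich tumours carried them. Genes near 0 in the brain-poor tumours, such as Ppp1r17, Wif1, Gdf10, Etnppl and Ctxn3, could reach that mean only through the brain-rich ones. Their direction was thus fixed by the filter, and their place in this group is not a separate result. Ppp1r17, a phosphatase inhibitor of Purkinje cells, was listed at 0 reads in all 3 brain-poor tumours and at 1.59, 49.8, 0.386 and 0.652 CPM in the brain-rich ones, and GSC1 replicate 4 was the highest of these. Wif1, a secreted inhibitor of Wnt ligands, was at 0.290, 0.184 and 0.407 CPM in the brain-poor and 56.0, 55.7, 2.35 and 0.451 CPM in the brain-rich tumours (log2 fold change 6.17, SE 1.42). Gdf10, a growth factor of Bergmann glia, was at 0.290, 0.147 and 0.611 CPM in the brain-poor and 19.5, 99.7, 1.96 and 2.51 CPM in the brain-rich tumours (log2 fold change 5.84, SE 1.53). Both were above 15 CPM in the GSC1 tumours of the brain-rich side and below 3 CPM elsewhere. Agt, the angiotensinogen made by astrocytes, was at 2.41, 0.845 and 6.51 CPM in the brain-poor and 441, 165, 63.2 and 19.0 CPM in the brain-rich tumours (log2 fold change 5.32, SE 1.33). Slc1a6, the glutamate transporter of Purkinje cells, was at 1.68, 0.551 and 0.814 against 20.4, 126, 4.63 and 3.26 CPM (log2 fold change 4.75, SE 1.11), and Etnppl, an astrocyte enzyme of phospholipid metabolism, at 0.0869, 0.184 and 1.07 against 30.1, 7.43, 12.1 and 1.25 CPM (log2 fold change 4.92, SE 1.34). For all 3 of these genes the GSC2 tumours of the brain-rich side included the lowest brain-rich value. Ctxn3 was spread more evenly, at 0.232, 0.331 and 0.611 CPM in the brain-poor and 15.2, 16.2, 7.86 and 13.5 CPM in the brain-rich tumours (log2 fold change 5.11, SE 0.50), as was Calb2. The remaining genes of this group were Kcng4, Paqr6, Serpinb1b and Zic1. Kcng4, a modifier subunit of potassium channels, was at 1.62, 0.404 and 1.53 against 64.6, 72.9, 14.6 and 9.97 CPM (log2 fold change 4.84, SE 0.80).

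The genes with the largest decreases included Mki67, Cenpe, Cenpf, Kif15, Cntrl, Xist, Slfn9, Nlrc5, Snhg17, Rnf213 and Oas1b. In each of these except Oas1b, GSC2 replicate 2 was the highest brain-rich tumour. Rnf213, a large interferon-responsive ubiquitin ligase, was at 320.3, 657 and 654 CPM in the brain-poor and 17.6, 46.7, 299 and 137 CPM in the brain-rich tumours (log2 fold change -3.10, SE 0.68), and its longest transcript has 16716 bases. Kif15, a mitotic kinesin, was at 38.6, 52.2 and 53.7 against 2.35, 3.86, 26.9 and 9.27 CPM (log2 fold change -3.02, SE 0.62), and Cntrl, a centriole protein, at 29.9, 41.1 and 40.7 against 1.31, 2.76, 20.7 and 3.21 CPM (log2 fold change -3.24, SE 0.80). In both genes GSC2 replicate 2 was nearer to the brain-poor tumours than to the GSC1 tumours of its own side. Oas1b, an interferon-induced antiviral gene of a multigene family, has a transcript of 1837 bases and was at 9.97, 9.56 and 16.7 CPM in the brain-poor and 0.358, 1.00, 4.42 and 4.46 CPM in the brain-rich tumours (log2 fold change -3.07, SE 0.53). Snhg17, a host transcript of small nucleolar RNAs, was at 18.5, 17.1 and 20.2 against 1.19, 1.14, 8.21 and 2.56 CPM (log2 fold change -3.14, SE 0.58).

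The share of genes that passed differed between classes of transcript length. Of 962 genes of at most 1000 bases 19.4% were higher and 2.70% lower. Of 895 genes over 8000 bases 14.7% were higher and 25.3% lower. The median log2 fold change fell from 0.19 in the shortest class through 0.03 in the middle class to -0.31 in the longest. With a loess trend on length removed from each library, 3258 genes were higher and 3256 lower, and 5540 of the 5765 genes that had passed did so again in the same direction. The length trend and the split cannot be told apart in the 3 libraries where they coincide.

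**Figure D4:**
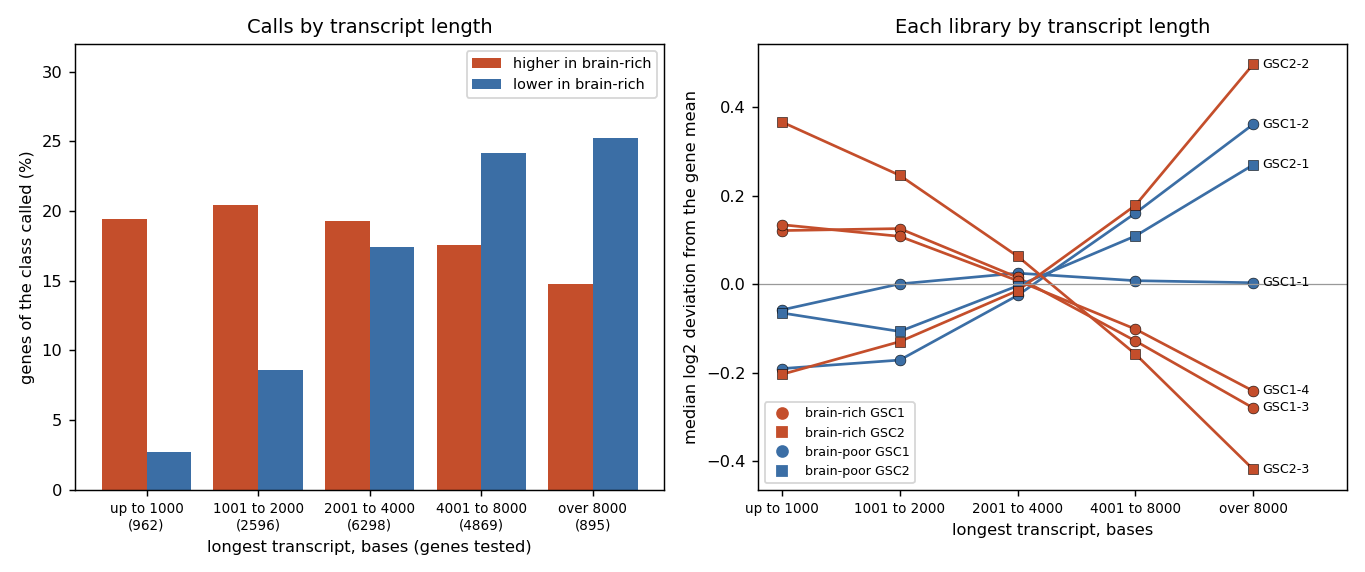
Left, percent of tested genes called higher (red) or lower (blue) in brain-rich tumours, by class of longest transcript length in bases; right, median log2 deviation of the genes of each class from their mean over the 7 tumours, with 1 line per tumour. GSC1 replicates 3 and 4 and GSC2 replicate 3 slope down to -0.28, -0.24 and -0.42 in the longest class, and GSC2 replicate 2, also brain-rich, slopes up to 0.50.

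The sex-linked genes showed a further difference among the tumours. Xist, the RNA that silences an X chromosome in female cells, was at 132, 229.6 and 201 CPM in the brain-poor and 11.9, 12.4, 58.5 and 9.27 CPM in the brain-rich tumours (log2 fold change -3.39, SE 0.64, edgeR adjusted p = 0.018), and its transcript has 17946 bases. Of 9 sex-linked genes 3 were lower, Xist, Kdm6a and Kdm5c, and 0 higher, and their median was -0.17 in the GSC2 pair. Ddx3y, a helicase gene of the Y chromosome, had 11, 96 and 73 reads in the brain-poor tumours and 0, 0, 166 and 65 in the brain-rich ones. Eif2s3y, Kdm5d and Uty also had 0 reads in GSC1 replicates 3 and 4, where 3 reads correspond to 0.119 and 0.143 CPM. Of these 4 Y-linked genes 0 passed in edgeR, 0 had an unadjusted p under 0.05 there and 0 passed in limma-voom, while DESeq2 passed 4 as lower. All 7 tumours had reads of Xist, and 5 of 7 also had reads of Y-linked genes. The sex of the hosts and of the lines is not stated in the labels.

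The sides were also compared within each line, where the tumours are not shared. The brain-rich minus brain-poor log2 difference had the same sign in GSC1 and in GSC2 for 12985 of 16067 genes (80.8%). Across genes, which are not independent replicates and which share the normalization, Pearson's r was 0.70 and Spearman's rho 0.75. With GSC2 replicate 2 alone on the brain-rich side of GSC2 the same sign was found for 12342 genes (76.8%). The fit without the 3 libraries of negative length slope draws its side difference from GSC2 replicates 2 and 1 alone. Positive values stood there at 20 of 20 pan-neuronal and 16 of 16 astrocyte genes, with medians of 1.52 and 1.61. Negative values stood there at 24 of 24 mitosis, 24 of 24 DNA replication and 17 of 17 MHC class I and interferon genes, with medians of -0.65, -0.60 and -0.89. The differences were wider in GSC1, with an SD over genes of 1.48 on the log2 scale, than in GSC2, with 0.84. A test of the line by side interaction in edgeR passed 0 genes of 16067, with 1578 (9.82%) at an unadjusted p under 0.05, 0 in limma-voom and 279 in DESeq2. Each line had 1 or 2 tumours on a side.

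**Figure D5:**
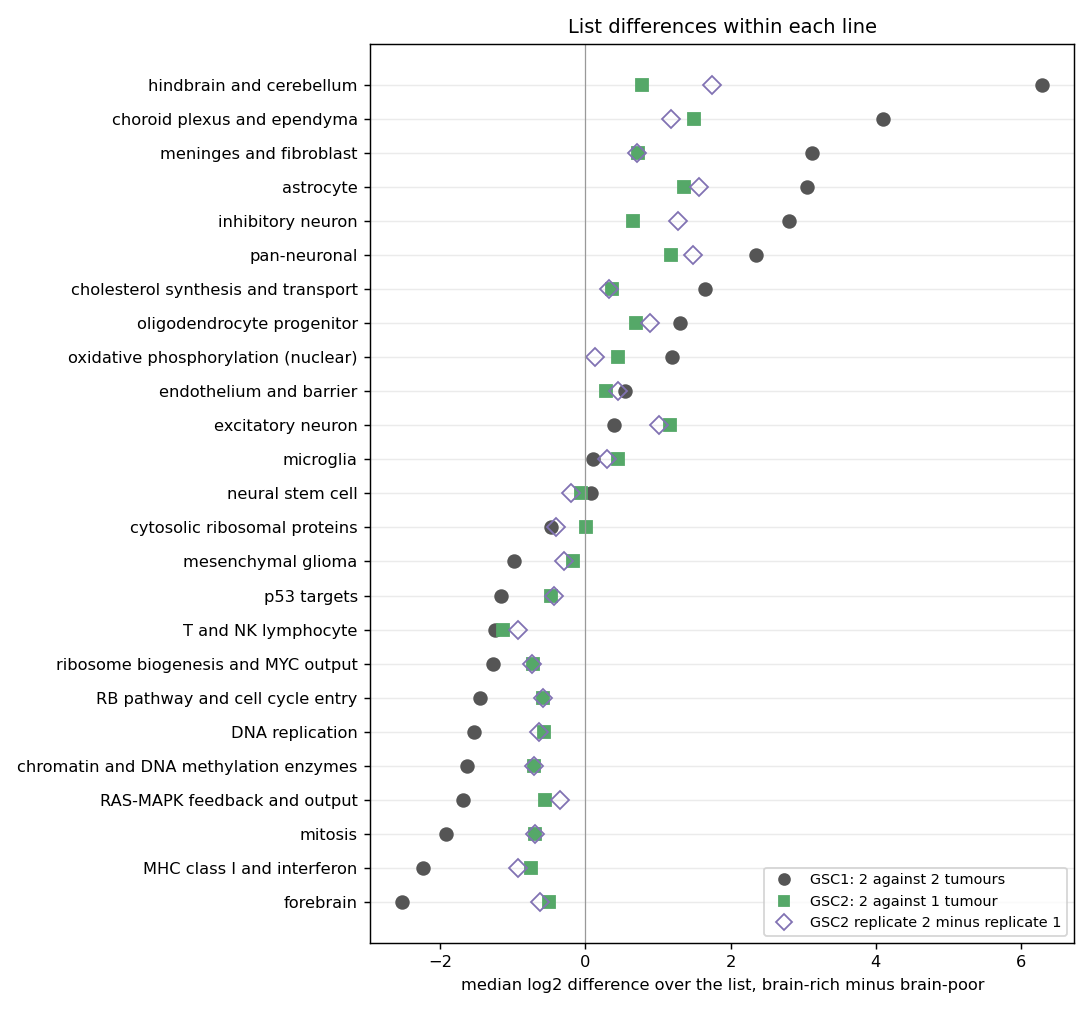
Median brain-rich minus brain-poor log2 difference over each gene list, within GSC1 (circles, 2 against 2 tumours), within GSC2 (squares, 2 against 1) and for GSC2 replicate 2 minus GSC2 replicate 1 (diamonds). The astrocyte list lies at 3.05, 1.36 and 1.57 and the mitosis list at -1.92, -0.69 and -0.69, and the cytosolic ribosomal proteins at -0.47, 0.0014 and -0.40.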

How the data were processed

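RNA of 7 tumours was isolated on RNeasy Plus columns and made into NEBNext Ultra libraries, per the labels' protocols. The deposited tables hold the authors' unnormalized count of reads for each Ensembl gene of the mouse. The submitters' processing notes name TopHat2 2.0.11, HTSeq and the builds mm9 and dm3, with no role for either build. HTSeq's strand option and counting mode are not given in the sources used, so overlapping and antisense genes are uncertain. The series calls the tumours independent, and p-values measure the spread between these tumours.

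Each table held 37620 gene rows and 5 summary lines, and the latter entered neither library sizes nor tests. Of all reads listed, 6.19 to 14.2% lay on no gene, 12.8 to 21.0% had no unique position and 0.357 to 0.460% were ambiguous. Symbols for 32897 rows and the longest transcript lengths came from a later mouse annotation, and the other 4723 carried 0.485% of the counts. Of 601 names on the gene lists 597 were matched.

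The test was edgeR 4.0.16 in R 4.3.3 (filterByExpr on side, TMM factors, a robust quasi-likelihood fit with line as covariate, Benjamini-Hochberg adjustment over 16067 genes, threshold 0.05). CPM values given per tumour use TMM-scaled library sizes, whereas the rule that made the sides used unscaled totals, and log2 differences within a line used a prior count of 2. Fold changes are brain-rich minus brain-poor, and error is the SE of the log2 fold change. The code was tested on simulated data. limma 3.58.1, DESeq2 1.42.0 and the other alternatives are compared in the closing section.

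The rule for named genes took the 12 largest fold changes per direction among genes that passed, did not overlap and had a mean of at least 5 CPM, and from each list at most 4 genes with the smallest adjusted p. Single list members that were the exception in their list, and Cdk4, Cbln3 and Hoxb5, were named after their values were seen. A few genes are left out of the text. The members and the lists were chosen with earlier results of these data known.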

Additional observations from a re-analysis of the deposited data

Results flagged for a closer look

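Dixon's criterion was applied on the log2 scale to 426 groups of 4 tumours, the GSC1 tumours and the brain-rich tumours for each list and each named gene, and 5 of the 426 had a tumour beyond the critical value of 0.829, all 5 among the brain-rich tumours. The critical value gives such a flag in about 1 in 20 groups when all tumours of a group come from 1 normal population. The GSC1 groups join 2 brain-rich and 2 brain-poor tumours, and many genes were chosen by their difference between the sides. That rate therefore does not apply to these groups, and the number of flags is not set against it. Xist stood at 58.5 CPM in GSC2 replicate 2, against 9.27 to 12.4 CPM in the other brain-rich tumours. C1ql1, a secreted synaptic protein on the oligodendrocyte progenitor list, stood at 33.0 CPM in GSC1 replicate 3, against 14.0 to 15.8 CPM. Rps19 stood at 718 CPM in GSC2 replicate 3, against 412 to 433 CPM, and Rpl23 at 810.3 CPM in the same tumour, against 498 to 509 CPM. That library had the most negative length slope, and both ribosomal protein genes have short transcripts. The part of the length trend in these values was not tested. Fosb, an immediate early gene, was lowest in GSC2 replicate 3, at 3.56 CPM against 4.56 to 4.77 CPM.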

How the results depend on the processing

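With RLE or upper-quartile factors, library size alone, without a filter, with genes of at least 5 CPM on average, limma-voom, DESeq2, no line covariate, the length offset or log2 Mbp CPM in place of the sides, the counts of higher and lower genes over all genes tested stayed within 1.5 times those reported. The fit on log2 Mbp CPM uses the values that made the sides, so its counts are not a separate result. Counts within lists moved more: of 32 list counts of at least 4 genes, 11 fell by over 1.5 times without the line covariate (hypoxia from 4 to 2 lower, neural stem cell from 5 to 1 and growth factor receptors from 6 to 3, besides 8 given with their lists). Without a filter 3 fell (inhibitory neuron from 9 to 4 higher, meninges from 6 to 3, and the count of the myelin list). The 32 include that myelin count, which restates the split and is not a result. Library size alone took endothelium from 6 to 3 higher, the mean of at least 5 CPM took choroid plexus from 6 to 2, and DESeq2 raised choroid plexus to 11 and forebrain from 4 to 7 lower. Without GSC2 replicate 3 matrix genes fell from 9 to 5 lower and growth factor receptors from 6 to 3. Without GSC2 replicate 1 choroid plexus rose to 10. Against a 1.5-fold change, 30 of the 32 fell by over 1.5 times. Leaving out single GSC1 tumours did so to 30 to 32 of the 32, and the block and the omission of the 3 libraries of negative slope to all 32. Against a 1.5-fold change edgeR passed 799 higher and 296 lower genes. Leaving out 1 tumour each gave 0 to 3226 higher and 0 to 3273 lower genes in edgeR; after seeing the data, the same fits were added in limma-voom (1152 to 3493 and 689 to 3447) and in DESeq2 (2621 to 4075 and 2202 to 3817). Without GSC1 replicates 1 to 4 in turn limma-voom passed 1152, 1349, 1394 and 1477 higher and 811, 1043, 689 and 781 lower genes. Without the 3 libraries of negative length slope 0 and 0 genes passed in edgeR and in limma-voom, and 88 and 10 in DESeq2. The interaction of line and side passed 0 genes in edgeR and limma-voom and 279 in DESeq2.

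With the replicate number as a block 0 and 0 genes passed in edgeR (1710 and 522 at an unadjusted p under 0.05) and in limma-voom, and 917 and 34 in DESeq2. Deviations of same-numbered tumours correlated at 0.58, -0.31 and 0.41. Numbers 1 and 3 join tumours of 1 side and number 2 joins tumours of opposite sides, so the correlations cannot show whether a number marks a shared batch. The labels tie the numbers to nothing shared, and they were used as names.

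Over 174 named genes and 3466 pairs of gene and setting, 2412 kept direction and side of the threshold, 980 fell short of it, 64 newly passed and 10 reversed. Without the 3 libraries of negative slope the reversed log2 values were Sall1 0.10, Acta2 -0.42, Tagln -0.59, Eif2s3y 0.23, Ddx3y 0.69, Kdm5d 1.21, Uty 0.75 and Eif2s3x -0.14. With the block Eif2s3x was at -0.20, and without the line covariate Uty was at 0.073. The cause of these changes was not tested.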
